A study of Mus musculus with 2 samples.

Results

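A set of 10 amino acid transporter genes, of the 17775 genes in the deposited matrix, was followed across the cell classes of mouse MC38 tumours. They were chosen by name: the heavy chain Slc3a2, its light chains Slc7a5, Slc7a8, Slc7a6 and Slc7a7, the cationic carriers Slc7a1 and Slc7a2, and the sodium-dependent neutral carriers Slc1a5, Slc38a1 and Slc38a2. All 10 were detected, with between 58 UMIs (unique molecular identifiers, 1 per captured RNA molecule) for Slc7a2 and 20689 UMIs for Slc3a2 in the deposited cells. The study asked how DFMO, an inhibitor of ornithine decarboxylase, alters the urea cycle in tumour-bearing mice. MC38 is a mouse colon carcinoma line, implanted here in C57BL/6 mice kept in a specific-pathogen-free room. The DFMO group received DFMO by gavage and the water group received water by gavage, in both cases from day 7 for 14 days. The labels give 2 gavages per day in 1 place and a daily gavage in another. Cells of 4 mice per group were pooled, immune cells were taken with a Ficoll step, and 1 single-cell 5′ library per group was sequenced.

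Amino acid carriers of the plasma membrane work in concert. Slc3a2, also called CD98 heavy chain or 4F2hc, is a glycoprotein that carries no amino acid itself but brings a light chain to the surface, where the light chain exchanges one amino acid for another. Slc1a5 and the Slc38 carriers use the sodium gradient and keep glutamine and other small neutral amino acids high in the cell, and light chains such as Slc7a5 trade these against leucine and other large neutral amino acids. Arginine and ornithine, the substrates of the urea cycle and of polyamine synthesis, enter mainly through the Slc7a1 and Slc7a2 carriers, which need no heavy chain.

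The DFMO library held 23588037 UMIs in 4472 deposited cells and the water library 59748244 UMIs in 6248 deposited cells, and 37 barcodes occurred in both. Filters left 4421 cells in DFMO (median depth 2208 UMIs) and 6150 in water (median depth 6334.5 UMIs). The classes took very different shares of the libraries. B cell-like cells were 33.7% of DFMO and 0.943% of water cells, and monocyte and macrophage-like cells were 4.25% of DFMO and 19.9% of water cells. Although the labels call the samples immune cells, 13.4% of DFMO and 32.9% of water cells lay in clusters with under 20 CPM (UMIs of a gene per 1000000 UMIs of the cells summed) of Ptprc, the pan-leukocyte gene, and without the markers of a named class. These Ptprc-low cells had a median of 18288 UMIs in DFMO and 16447 UMIs in water. Summed markers of tumour epithelium gave 0.49 CPM in DFMO and 0.86 CPM in water there, and no cell type name was given to these cells. The 4 Y-linked genes measured summed to 1.28 CPM in DFMO and 0.52 CPM in water in Ptprc-low cells. Fibroblast-like cells also had low sums, with 1.28 CPM (2 UMIs) in DFMO and 2.13 CPM (22 UMIs) in water. The monocyte and macrophage-like class had 104 CPM in DFMO and 78.5 CPM in water. The origin of the Ptprc-low and fibroblast-like cells was not tested. Each group was 1 library, so the spread between mice is unknown and nothing was tested. Every interval below is a 95% interval of counting error only.

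The heavy chain Slc3a2 was found in every class (chromosome 19, 8706882 to 8723369 on GRCm38, the build also called mm10). Its level was highest in Ptprc-low cells, at 322 CPM (interval 311 to 333) with DFMO and 308 CPM (302 to 314) with water. Fibroblast-like cells had 211 CPM in DFMO and 231 CPM in water, and regulatory T cell-like cells 175 CPM in DFMO and 184 CPM in water. In CD8 T cell-like cells the level was 142 CPM (127 to 159) with DFMO and 150 CPM (137 to 164) with water. The other lymphoid classes with over 100 cells in a library lay between 130 and 154 CPM, and in DFMO the intervals of neighbouring classes overlapped everywhere below Ptprc-low cells.

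Slc7a5 (LAT1), the light chain that imports leucine, tryptophan and other large neutral amino acids, was more uneven than its heavy chain (chromosome 8, 121881150 to 121907694). Ptprc-low cells had 204 CPM (195 to 213) with DFMO and 175 CPM (170 to 179) with water. They carried 75.9% of all Slc7a5 UMIs in each library. Of the kept UMIs of all genes, they held 10177307 of 23383042 in DFMO and 32650246 of 58368594 in water. The unnamed cells (47 in DFMO and 125 in water) had 138 CPM in DFMO and 146 CPM in water, and fibroblast-like cells 112 CPM in DFMO and 115 CPM in water. Lymphoid cells stood well below: NK cell-like cells had 47.6 CPM in DFMO and 37.4 CPM in water, CD8 T cell-like cells 37.8 CPM in DFMO and 44.1 CPM in water, and DFMO B cell-like cells 21.8 CPM. The lowest water level among classes with over 100 cells was in monocyte and macrophage-like cells, with 12.9 CPM (10.1 to 16.3), against 22.0 CPM (14.1 to 32.8) there in DFMO.

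Since depth differs between classes, every cell was also thinned to 1000 UMIs, with shallower cells left out. Slc7a5 was then seen in 14.9% of DFMO and 16.02% of water Ptprc-low cells, against 76.3% and 74.4% before thinning. In CD8 T cell-like cells it was seen in 3.03% of DFMO and 3.78% of water cells, against 12.7% and 13.7% before thinning. The difference between the classes was thus present at equal depth. Joint detection of the heavy chain with this light chain was also counted in the thinned cells. Of thinned DFMO Ptprc-low cells with a Slc7a5 UMI, 36.8% (26.7% to 47.8%) also had a Slc3a2 UMI, against 21.0% (17.5% to 24.8%) of those without one. The water cells gave 33.0% (27.9% to 38.5%) with and 24.0% (22.0% to 26.1%) without a Slc7a5 UMI. Within cluster 2 of the water library the shares were 27.9% with and 26.1% without, with overlapping intervals. DFMO cells of cluster 2 gave 41.7% (25.5% to 59.2%) with and 21.6% (15.6% to 28.6%) without, also overlapping. In cluster 5, water cells gave 42.2% (31.4% to 53.5%) with and 22.3% (18.3% to 26.8%) without, with intervals apart. DFMO cells of cluster 5 gave 39.1% with and 23.8% without, with overlapping intervals. Intervals of water cells also overlapped in cluster 3, at 34.7% with and 30.6% without, and in cluster 14, at 26.1% with and 7.89% without. In water monocyte and macrophage-like cells the shares were 16% with and 16.1% without a Slc7a5 UMI. Water fibroblast-like cells gave 33.7% with and 17.8% without, with intervals apart. DFMO B cell-like cells gave 26.9% with and 12.2% without, with overlapping intervals. The order was reversed in water CD8 T cell-like cells, at 10.3% with and 15.4% without. DFMO other T cell-like cells gave 8.33% with and 12.6% without, and both pairs of intervals overlapped.

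**Figure D1:**
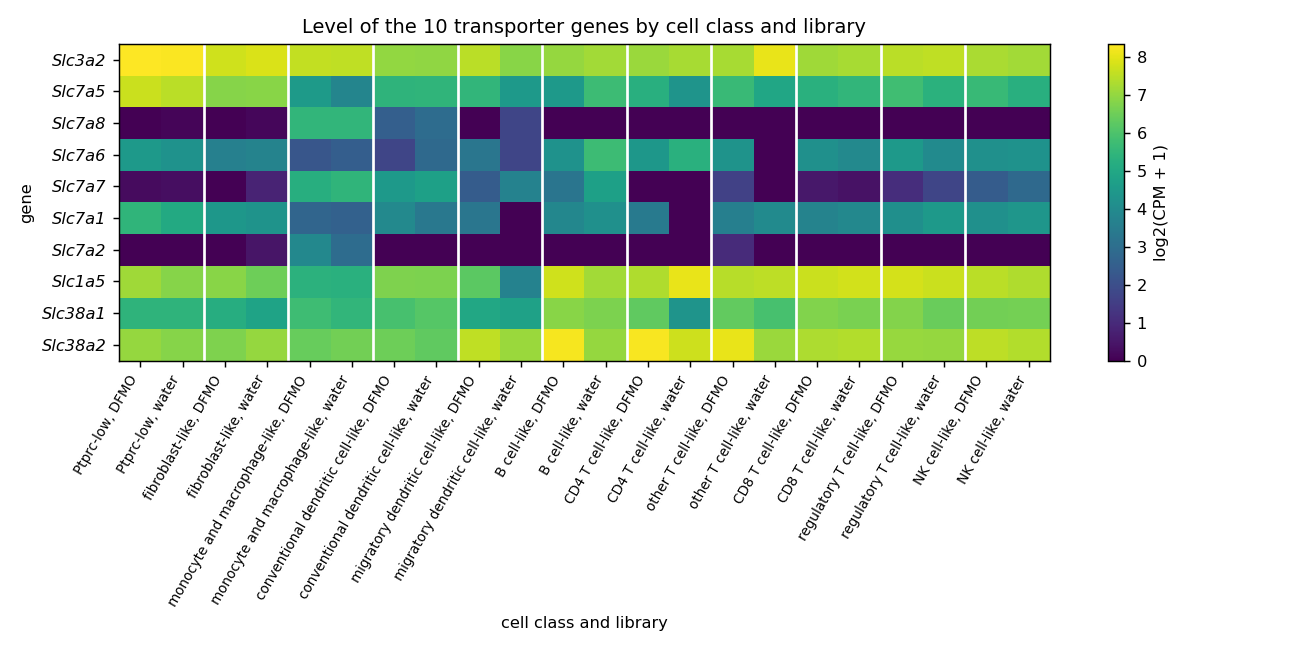
Level of each of the 10 genes as log2(CPM + 1) (colour) in 11 cell classes, with the DFMO library left of the water library in each pair. Slc7a8 and Slc7a2 are brightest in monocyte and macrophage-like cells and dark in most others, Slc7a5 is brightest in Ptprc-low cells, and water B cell-like, CD4 T cell-like and other T cell-like cells rest on 58, 40 and 40 cells.

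Slc7a8 (LAT2), the second light chain for large and small neutral amino acids, was a gene of the monocyte and macrophage-like class (chromosome 14, 54722209 to 54781946). This class held 94.1% of its UMIs in DFMO and 93.1% in water. The level there was 44.1 CPM (32.5 to 58.5) with DFMO and 43.4 CPM (38.1 to 49.2) with water. No Slc7a8 UMI was found in B cell-like, T cell-like or NK cell-like cells of either library. In CD8 T cell-like cells that count of 0 allows a level of up to 1.399 CPM in DFMO and 0.967 CPM in water, at 3 counts per library. Conventional dendritic cell-like cells had 4.70 CPM (2 UMIs) with DFMO and 6.76 CPM (11 UMIs) with water.

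Slc7a7 (y+LAT1), which exports arginine and lysine against neutral amino acids and sodium and is mutated in human lysinuric protein intolerance, was also a myeloid gene (chromosome 14, 54369442 to 54417780). Monocyte and macrophage-like cells had 36.7 CPM (26.3 to 50.04) with DFMO and 43.0 CPM (37.8 to 48.8) with water. Conventional dendritic cell-like cells had 21.2 CPM in DFMO and 25.8 CPM in water. DFMO B cell-like cells had 8.46 CPM from 24 UMIs, and NK cell-like cells 4.32 CPM in DFMO and 6.14 CPM in water. CD8 T cell-like cells had 1 UMI in each library, and the CD4 T cell-like class had none.

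Across the 19 clusters with at least 50 kept cells, Slc7a7 and Slc7a8 varied together, with a Pearson r of 0.84 of log2(CPM + 1). The clusters share libraries, depth and the genes used to cluster them, so r is a description only. By this measure the genes most like Slc7a7 included Cd300lf, an inhibitory receptor of myeloid cells (r = 0.96), and Spi1, which encodes the myeloid transcription factor PU.1 (r = 0.95). Those most like Slc7a8 were the Fc receptor Fcgr4 (r = 0.96), the myeloid lectin Clec5a (r = 0.96) and Slfn4 (r = 0.95).

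Because these light chains follow myeloid genes, the promoter windows of RefSeq (build GRCm38.p6, 250 bases before to 50 after a start) were searched for GAGGAAG, the core bound by PU.1, on both strands. This motif was added after seeing the data. Windows were given for 6 of the 10 members. Slc7a2, Slc7a5, Slc1a5 and Slc38a1 had no window and were not searched. The letters occurred in windows of Slc7a7 and Slc7a8 and in none of the other 4 members with windows, while 13.6% of all 32851 windows hold them. The response element bound by C/EBP and ATF factors, including Atf4, the factor of the amino acid starvation response, was searched as TGATGNAA on both strands. It was found in 3.97% of all windows and, among the members searched, in windows of Slc7a7 only. Slc7a7 has several annotated starts, and its windows overlap in part. The shares over all windows are per window, so they are not a like measure for a gene with several windows. A further Slc7a7 window, chr14:54410154-54410453, holds another PU.1 match and is not printed. The other stretches with matches are printed to show where the letters lie, with the matches in capitals, on the minus strand and 5′ to 3′, with the C/EBP-ATF stretch at chr14:54417938-54418095, the Slc7a7 PU.1 stretch at chr14:54417683-54417709 and the Slc7a8 PU.1 stretch, where the motif lies on the opposite strand, at chr14:54782055-54782101. A match is a stretch of letters, and no binding was measured here.
Slc7a7 C/EBP-ATF: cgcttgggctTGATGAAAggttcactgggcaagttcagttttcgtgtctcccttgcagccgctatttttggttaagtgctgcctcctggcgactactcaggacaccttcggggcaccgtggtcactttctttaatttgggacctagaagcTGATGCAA
Slc7a7 PU.1: agggagggaaGAGGAAGctgagtgtgc
Slc7a8 PU.1: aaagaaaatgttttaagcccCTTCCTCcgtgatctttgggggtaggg

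Slc7a6 (y+LAT2), which like Slc7a7 exchanges cationic for neutral amino acids, had the opposite distribution (chromosome 8, 106168857 to 106198706). Ptprc-low cells had 21.4 CPM (18.7 to 24.5) with DFMO and 18.0 CPM (16.6 to 19.5) with water. CD8 T cell-like cells had 17.3 CPM in DFMO and 14.2 CPM in water, and NK cell-like cells 17.3 CPM in DFMO and 17.9 CPM in water. Monocyte and macrophage-like cells had 3.67 CPM (1.001 to 9.41) with DFMO and 4.66 CPM (3.05 to 6.83) with water. Slc7a6 and Slc7a7 ran against each other over the 19 clusters (r = -0.55). Slc7a6 was closest to Slc1a5 among the members (r = 0.89) and to BC003965, Atad1 and Rbm25 among all genes (r = 0.94, 0.92 and 0.92).

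The cationic carrier Slc7a1 (CAT1), the widespread importer of arginine, lysine and ornithine, peaked in Ptprc-low cells (chromosome 5, 148327410 to 148399904). Its level there was 43.3 CPM (39.4 to 47.6) with DFMO and 32.2 CPM (30.3 to 34.2) with water. Regulatory T cell-like cells had 16.6 CPM in DFMO and 21.9 CPM in water, NK cell-like cells 17.3 CPM in DFMO and 19.97 CPM in water, and CD8 T cell-like cells 12.1 CPM in DFMO and 13.9 CPM in water. The lowest levels among classes with over 100 cells were in monocyte and macrophage-like cells, at 5.51 CPM (2.02 to 11.997) with DFMO and 5.02 CPM (3.34 to 7.26) with water. Slc7a1 was most like Ccdc47, a factor of membrane protein biogenesis (r = 0.92), the ceramide synthase Cers5 (r = 0.89) and the phosphatase G6pc3 (r = 0.89).

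Slc7a2 (CAT2), the carrier that supplies macrophages with arginine for nitric oxide synthase and arginase, was found in few cells (chromosome 8, 40862396 to 40922308). Monocyte and macrophage-like cells held 15 of the 16 kept UMIs in DFMO and 37 of the 41 in water. The rest were 1 UMI in DFMO other T cell-like cells and 4 UMIs in water fibroblast-like cells. Inside the class most UMIs came from cluster 12, whose leading genes include Mmp12, Arg1, Apoe and the complement genes C1qa and C1qc. There, 7 of 61 DFMO cells held 14 UMIs and 21 of 364 water cells held 30 UMIs, with at most 4 UMIs in a cell of either library. Cluster 9 (Ly6i, Il1b) had none in DFMO and 7 in water, and cluster 10 (Hp, Chil3) had 1 in DFMO and none in water.

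Slc1a5 (ASCT2), an exchanger of glutamine, alanine, serine and cysteine, was highest in lymphocytes (chromosome 7, 16781340 to 16798274). Regulatory T cell-like cells had 219 CPM (190 to 252) with DFMO and 202 CPM (173 to 234) with water, and CD8 T cell-like cells 202 CPM (183 to 222) with DFMO and 217 CPM (200 to 234) with water. Within the CD8 class, cluster 6 (Gzmf, Pdcd1, Lag3) had 243 CPM in DFMO and 255 CPM in water. The dividing cluster 16 had 138 CPM (112 to 169) with DFMO and 182 CPM (157 to 211) with water. Ptprc-low cells had 141 CPM in DFMO and 112 CPM in water, and monocyte and macrophage-like cells 40.4 CPM in DFMO and 38.5 CPM in water, with intervals apart from those of CD8 T cell-like cells in both libraries.

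Slc38a1 (SNAT1), a sodium-coupled importer of glutamine, followed Slc1a5 with r = 0.84 over the 19 clusters (chromosome 15, 96571418 to 96642913). CD8 T cell-like cells had 108 CPM (94.3 to 123) with DFMO and 99.9 CPM (89.1 to 112) with water. B cell-like cells had 116 CPM (104 to 129) with DFMO and 102 CPM (52.9 to 179, 12 UMIs) with water. Ptprc-low cells had 41.6 CPM (37.7 to 45.7) with DFMO and 42.0 CPM (39.8 to 44.3) with water. Of its 31-base stretches, 6.59% also occur in transcripts of other genes, the largest share among the members, and its effect on the counts was not tested.

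Slc38a2 (SNAT2), the sister gene that cells induce when amino acids run short, lies beside Slc38a1 on chromosome 15 (96687392 to 96699730). Its highest levels were in DFMO B cell-like cells, with 295 CPM (275 to 315), and in DFMO T cells with genes of the naive state. CD4 T cell-like cells, led by Lef1 and Tcf7, had 303 CPM (272 to 337) in DFMO, and other T cell-like cells, led by Dapl1 and Cd8b1, had 268 CPM (237 to 303) in DFMO. The same classes had 209 CPM from 11 UMIs and 134 CPM from 9 UMIs in water, too few to set beside them. CD8 T cell-like cells had 158 CPM (142 to 176) with DFMO and 167 CPM (153 to 182) with water. After thinning, Slc38a2 was seen in 25.0% of DFMO CD4 T cell-like and 13.6% of DFMO CD8 T cell-like cells. The genes most like it were Ccnt1 and Ccnl2, cyclins of transcription and splicing (both r = 0.95), and Ttc14 (r = 0.94).

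DFMO was then set against water for each class with at least 100 kept cells in both libraries. A member counted as measured with at least 30 UMIs over both libraries, and a ratio of at least 1.5-fold either way, 0.58 on the log2 scale, was called past the fold. In Ptprc-low cells, 6 of the 7 measured members were higher in DFMO and none was past the fold, while 7.53% of the 11727 measured genes were. The members' median log2 ratio was 0.23. Over all measured genes it was 0.06, and 6910 of them were higher. Slc7a1 had the highest ratio, 0.43 (0.27 to 0.59), followed by Slc1a5 with 0.32 (0.23 to 0.41). Slc7a5 had 0.22 (0.15 to 0.29), Slc38a2 0.23 (0.13 to 0.32), Slc7a6 0.25 (0.02 to 0.48) and Slc3a2 0.06 (0.01 to 0.12). Slc38a1 was at -0.02 (-0.18 to 0.14). With cells thinned to 1000 UMIs the members' median was -0.051 and 1 was past the fold. Thinning discards most UMIs of this class, whose cells had medians of 18288 UMIs in DFMO and 16447 UMIs in water. Over its alternatives, Slc7a1 ranged between 0.23 and 0.94, and Slc1a5 between -0.051 and 0.40. Summed B cell markers were 23.9 CPM in DFMO and 1.16 CPM in water in this class, and their part in the ratios was not tested.

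The Ptprc-low clusters differed among themselves. In cluster 2, led by cell division genes such as Cenpf, Top2a and Ube2c, all 7 measured members were higher in DFMO, and 1 was past the fold, against 9.7% of all measured genes. That member was Slc7a1, with 53.1 CPM (45.9 to 61.0) with DFMO and 32.1 CPM (29.2 to 35.2) with water, a log2 ratio of 0.73 (0.48 to 0.97). Its UMIs came from 100 of 203 DFMO cells and 293 of 730 water cells. Slc38a2 had 171 CPM in DFMO and 114 CPM in water there (0.58, 0.44 to 0.71), just short of the fold, and Slc3a2 had 359 CPM in DFMO and 297 CPM in water (0.28, 0.19 to 0.36).

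In cluster 3, led by genes of the hypoxia response such as Car9, Adm and Ndrg1, no member was past the fold, against 8.91% of all measured genes. Slc3a2 was lower in DFMO, with 330 CPM (310 to 350) against 358 CPM (346 to 370) in water, and Slc38a2 had 106 CPM in DFMO and 120 CPM in water. In cluster 5, led by Hmga2 and Ccnd1, none was past the fold either, against 9.93% of all measured genes. Here 6 of 7 measured members were higher in DFMO, with a median of 0.14. Over all 10175 measured genes 5530 were higher, and the median was 0.03. Slc7a5 there had 236 CPM (218 to 255) with DFMO and 184 CPM (174 to 193) with water, and Slc1a5 had 195 CPM (178 to 212) with DFMO and 146 CPM (137 to 154) with water. Without cluster 2 the class ratios were 0.23 for Slc7a1, -0.03 for Slc38a2 and -0.07 for Slc3a2, and 0.22 for Slc7a5 and 0.28 for Slc1a5. The positive class values of Slc38a2 and Slc3a2 were thus not seen without that cluster. Cluster 14 had a median of 5944.5 UMIs per cell in DFMO and 4543 in water, and its 3 measured members included Slc38a2 at 0.62 (-0.59 to 1.75) from 11 UMIs in DFMO and 20 in water, 1 past the fold against 17.1% of all measured genes.

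**Figure D2:**
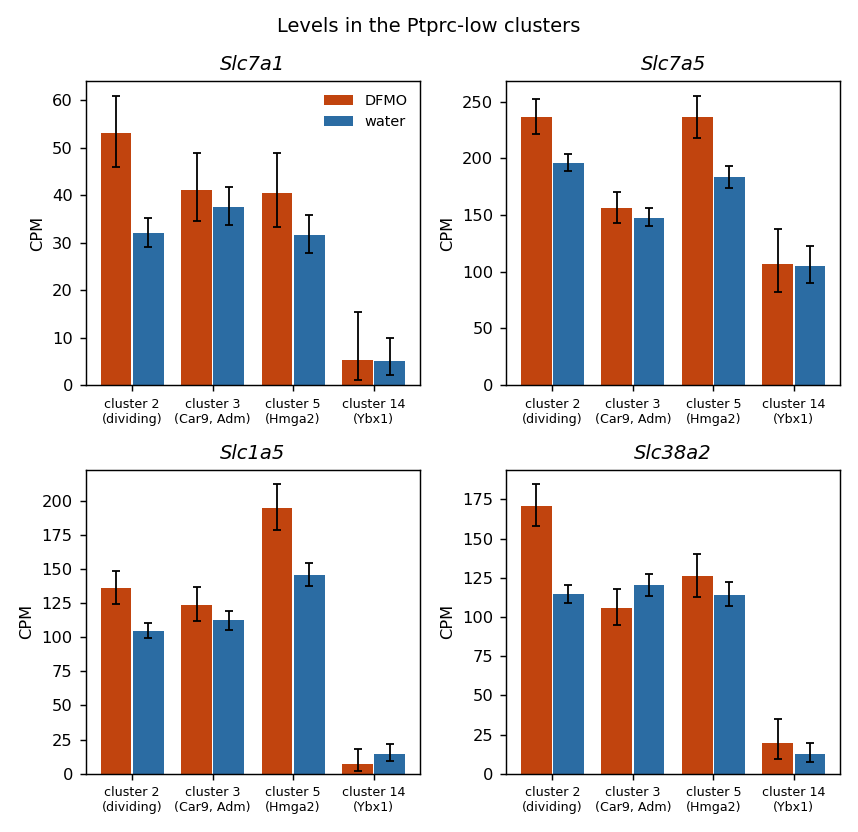
Level in CPM (bars, with 95% counting intervals) of Slc7a1, Slc7a5, Slc1a5 and Slc38a2 in the 4 Ptprc-low clusters, DFMO left of water. Slc7a1 in cluster 2 has 53.1 CPM in DFMO and 32.1 CPM in water with intervals apart, while cluster 14 is low in both libraries for Slc7a1, Slc1a5 and Slc38a2.

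Monocyte and macrophage-like cells were few in DFMO, with 188 cells against 1224 in water. All 10 members were measured, 7 were higher in DFMO, and 2 were past the fold, both higher, against 15.8% of all measured genes either way. Slc7a2 had 13.8 CPM (7.71 to 22.7) with DFMO and 6.63 CPM (4.67 to 9.14) with water, a log2 ratio of 1.05 (0.08 to 1.95). Slc7a5 had 24 UMIs in 19 DFMO cells and 72 UMIs in 65 water cells, a log2 ratio of 0.77 (0.04 to 1.46). Slc7a8 stood at 0.02 (-0.46 to 0.47), Slc7a7 at -0.23 (-0.75 to 0.26) and Slc3a2 at 0.03 (-0.19 to 0.25). Slc7a2 gave 0.40 and Slc7a5 0.60 after thinning. The median over the 10 was 0.05, against 0.04 over all 8869 measured genes. Summed genes of other cells differed beside these ratios: the carry-over list (erythrocyte, fibroblast, endothelial and epithelial genes) summed to 31.2 CPM in DFMO and 269 CPM in water. Its part in the ratios was not tested.

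The 3 clusters of this class carried the transporters in different proportions. Slc7a8 in cluster 10, with the monocyte genes Hp and Chil3, had 4.24 CPM (0.514 to 15.3) with DFMO and 10.9 CPM (6.86 to 16.6) with water. It had 50.5 CPM in DFMO and 59.6 CPM in water in cluster 9, and 94.0 CPM (64.3 to 133) with DFMO and 63.4 CPM (52.7 to 75.6) with water in cluster 12. Slc3a2 took the same order over the clusters, with 87.0 CPM in DFMO and 78.6 CPM in water in cluster 10, 159 CPM in DFMO and 181 CPM in water in cluster 9, and 356 CPM (295 to 425) with DFMO and 297 CPM (273 to 322) with water in cluster 12. Slc7a7 instead was highest in cluster 9, with 68.6 CPM (41.3 to 107) with DFMO and 57.1 CPM (46.1 to 70.1) with water. Slc1a5 was lowest where Slc3a2 was highest. It had 50.9 CPM in DFMO and 50.2 CPM in water in cluster 10, 57.8 CPM in DFMO and 42.2 CPM in water in cluster 9, and 11.8 CPM (3.202 to 30.1) with DFMO and 23.5 CPM (17.2 to 31.4) with water in cluster 12.

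**Figure D3:**
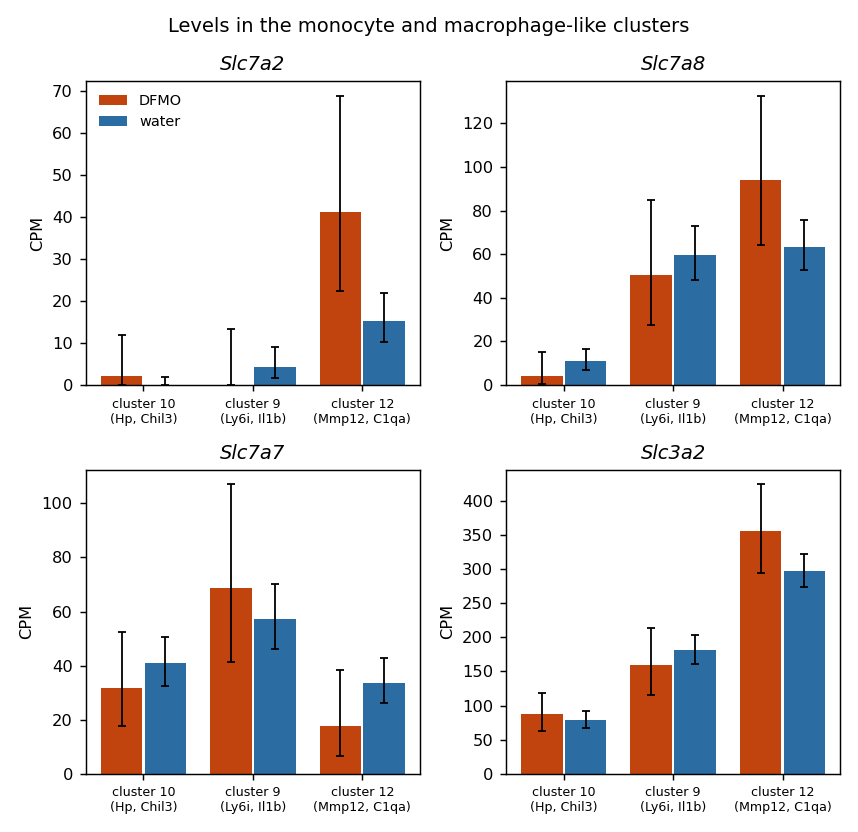
Level in CPM (bars, with 95% counting intervals) of Slc7a2, Slc7a8, Slc7a7 and Slc3a2 in the 3 monocyte and macrophage-like clusters, DFMO left of water. Slc7a2 has at most 4.35 CPM in clusters 9 and 10 and is highest in cluster 12. There it has 41.1 CPM in DFMO and 15.3 CPM in water, with counting intervals just apart. These UMIs come from few cells, and the intervals take no account of several UMIs lying in the same cell.

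Cluster 12, with 61 DFMO and 364 water cells, was compared under a lower minimum of 50 cells chosen after seeing the data. Of its 8 measured members, 4 were past the fold, against 27.4% of all measured genes. Slc7a2 had 41.1 CPM (22.5 to 69.0) with DFMO and 15.3 CPM (10.3 to 21.9) with water, a log2 ratio of 1.42 (0.39 to 2.38). The intervals of the other 3 held 0: Slc38a1 at 0.63 (-0.34 to 1.503), Slc7a7 at -0.94 (-2.43 to 0.26) and Slc1a5 at -1.0004 (-2.94 to 0.45). Slc7a8 was at 0.57 (-0.04 to 1.14). In cluster 10 none of 5 measured members was past the fold, against 17.7% of all measured genes. Without cluster 12 the class ratio of Slc7a8 was -0.61, and Slc7a5 was at 1.07, while Slc7a2 was no longer measured.

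In CD8 T cell-like cells no measured member was past the fold, against 9.64% of all measured genes. The 7 ratios lay between -0.22 for Slc7a5 (-0.64 to 0.18) and 0.28 for Slc7a6 (-0.39 to 0.95), and every interval held 0. Slc1a5 was at -0.10 (-0.28 to 0.08) and Slc3a2 at -0.07 (-0.29 to 0.14), so a change of 1.5-fold lies outside their counting intervals, though the spread between mice is unknown. Cluster 6 also had none past the fold, against 12.4% of all measured genes. Cluster 16 had none either, against 16.2%, and its Slc1a5 ratio was -0.40 (-0.77 to -0.04). In cluster 13, led by Cd160 and Gzmk, 1 of 5 measured members was past the fold, against 16.4% of all measured genes. This was Slc7a5, with 3 UMIs in 3 of 121 DFMO cells and 30 UMIs in 26 of 300 water cells, a log2 ratio of -2.35 (-4.70 to -0.66).

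NK cell-like cells had none of 7 members past the fold, against 13.1% of all measured genes, with ratios between -0.21 for Slc7a1 (-1.06 to 0.61) and 0.35 for Slc7a5 (-0.18 to 0.87). Regulatory T cell-like cells had none either, against 22.9% of all measured genes. Their ratios ran between -0.40 for Slc7a1 (-1.48 to 0.65) and 0.49 for Slc7a6 (-0.61 to 1.63), and Slc7a5 was at 0.47 (-0.19 to 1.14). All of these intervals held 0. Summed cell division genes gave 2551 CPM in DFMO and 3784 CPM in water in the NK cell-like class. Summed B cell markers were 144 CPM in DFMO and 34.7 CPM in water in regulatory T cell-like cells, and their part was not tested.

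**Figure D4:**
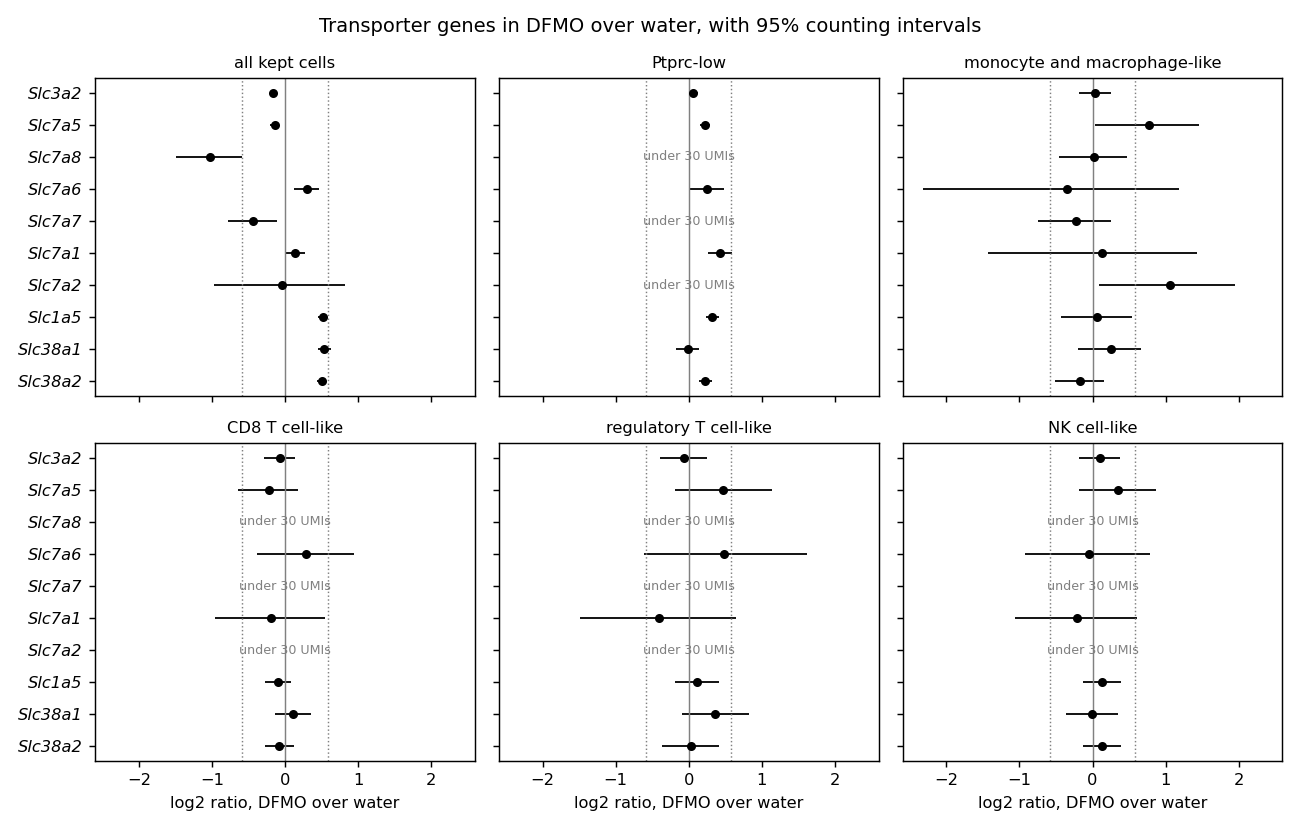
Log2 ratio of DFMO over water (points, with 95% counting intervals) for each member in all kept cells and 5 classes. Dotted lines mark 1.5-fold either way, and every interval drawn for a lymphoid class crosses 0. Slc7a1 in Ptprc-low cells stands at 0.43 and Slc7a2 in monocyte and macrophage-like cells at 1.05.

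The minimum of 50 cells also admitted B cell-like and fibroblast-like cells. In B cell-like cells 3 of 7 measured members were past the fold, against 48.2% of all measured genes, in a class with 58 water cells. Slc38a2 had 295 CPM (275 to 315) with DFMO and 128 CPM (71.7 to 211, 15 UMIs) with water, a log2 ratio of 1.20 (0.47 to 2.05). Summed cell division genes gave 309 CPM in DFMO and 1272 CPM in water in this class, and the carry-over list gave 1608 CPM in DFMO and 102 CPM in water. Their part in the ratios was not tested. Slc7a5 at -1.23 (-2.43 to 0.27) and Slc7a6 at -1.51 (-2.73 to 0.00) rested on 6 water UMIs each. Fibroblast-like cells had no member past the fold, against 15.1% of all measured genes. Slc1a5 was at 0.36 (0.12 to 0.59) and Slc38a2 at -0.27 (-0.52 to -0.04) there, with opposite signs and small sizes.

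Whole libraries were compared as a bulk sample would be, where fewer cells of a type and less RNA per cell cannot be told apart. In all kept cells 1 of 10 members was past the fold, against 27.9% of all measured genes. This was Slc7a8, with 2.18 CPM (51 UMIs) with DFMO and 4.45 CPM (260 UMIs) with water, a log2 ratio of -1.03 (-1.49 to -0.59). When 12 classes were given the same weight in both libraries, Slc7a8 averaged 5.48 CPM in DFMO and 5.50 CPM in water. Slc1a5 had a log2 ratio of 0.14 with equal weights and 0.51 without, and Slc38a1 0.25 with and 0.54 without. Slc38a2 stood at 0.43 with equal weights and 0.50 without. Its weighted water value includes 128 CPM from 15 UMIs of B cell-like cells. It also includes 209 CPM from 11 UMIs of CD4 T cell-like and 134 CPM from 9 UMIs of other T cell-like cells. The ratio of 0.43 therefore leans on few water UMIs. Slc7a6 changed sign, at -0.37 with equal weights and 0.30 without, and so did Slc7a5, at 0.10 with and -0.14 without. The weighted water values of Slc7a5 and Slc7a6 each include 51.2 CPM from 6 UMIs of B cell-like cells. Slc7a7 lay at -0.63 with equal weights and -0.44 without. Its weighted water value includes 25.6 CPM from only 3 UMIs of B cell-like cells, a class given a weight of 17.4%.

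**Figure D5:**
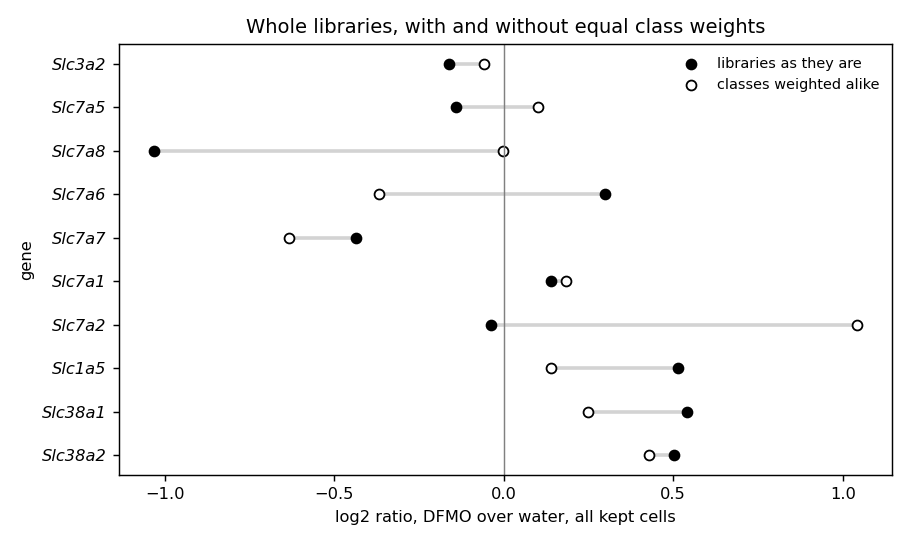
Log2 ratio of DFMO over water over all kept cells for each member, with the libraries as they are (filled) and with 12 classes weighted alike in both (open). Slc7a8 lies at -1.03 filled and near 0 open, Slc7a2 at -0.04 filled and 1.04 open, and Slc3a2 near 0 in both.

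Genes of related pathways were summarised beside the members. Of 36 other amino acid transporters, 25 are in the matrix. In Ptprc-low cells none of the 12 measured was past the fold, against 7.53% of all measured genes. In monocyte and macrophage-like cells 2 of 10 were, both higher in DFMO, near the 15.8% of all measured genes. They were the proton-coupled carrier Slc36a4, with 9.19 CPM in DFMO and 4.48 CPM in water (1.04, -0.19 to 2.14), and Slc38a6 (0.64, -0.82 to 1.91). Over all kept cells 5 of 16 were past the fold, all higher, against 27.9% of all measured genes either way, led by Slc43a1 (LAT3), with 1.45 CPM in DFMO and 0.22 CPM in water. The starvation response list, targets of Atf4 and its partners, had 20 of 28 members higher in DFMO in Ptprc-low cells. None was past the fold, and the median was 0.10. Over all 11727 measured genes there, 6910 were higher, 7.53% were past the fold and the median was 0.06.

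In lymphocytes the list member Atf3, a stress-induced transcription factor, was lower in DFMO. It had 30.8 CPM in DFMO and 60.6 CPM in water in CD8 T cell-like cells, 33.7 CPM in DFMO and 75.3 CPM in water in NK cell-like cells, and 11.1 CPM in DFMO and 64.7 CPM in water in regulatory T cell-like cells. Of 21 measured list members, 2 were past the fold in CD8 T cell-like cells, both lower, against 9.64% of all measured genes either way. In NK cell-like cells 4 of 19 were, all lower, against 13.1% of all measured genes either way. In regulatory T cell-like cells 5 of 18 were lower and 3 higher past the fold, against 22.9% of all measured genes either way. Those higher included the asparaginyl-tRNA synthetase gene Nars at 1.11 (0.55 to 1.70). Of the genes that sense amino acids at mTORC1, the kinase complex that licenses growth, 29 of 32 are in the matrix. In regulatory T cell-like cells 3 of 15 measured were past the fold, all higher, near the 22.9% of all measured genes, with the arginine-sensing lysosomal carrier Slc38a9 at 0.94 (-0.17 to 2.13) and the sestrin gene Sesn3 at 1.17 (0.52 to 1.85). In Ptprc-low cells none of 29 was past the fold, against 7.53% of all measured genes.

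Among the Ptprc-low clusters, the summed starvation list was highest in the hypoxia-gene cluster 3, with 9272 CPM over both libraries, against 6744 CPM in the dividing cluster 2 and 6704 CPM in cluster 5. The list holds Stbd1, which is also a leading gene of cluster 3, and no sum without it was made. Slc7a5 had 156 CPM in DFMO and 148 CPM in water in cluster 3, under its 237 CPM in DFMO and 196 CPM in water in cluster 2. The genes most like Slc7a5 over the 19 clusters were Lss, an enzyme of cholesterol synthesis (r = 0.97), the chaperone gene Hsp90ab1 (r = 0.96) and the arginine methyltransferase gene Carm1 (r = 0.95). Slc3a2 followed Slc7a5 with r = 0.56 only, and the genes nearest to it were Hyal2, Eogt and Abcc1 (r = 0.88, 0.85 and 0.84). Those nearest to Slc1a5 were Mogs, Slc10a7 and N4bp2l2 (r = 0.94, 0.93 and 0.92), and those nearest to Slc38a1 were Nemf, Cbll1 and 2510039O18Rik (r = 0.94, 0.92 and 0.92).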

How the data were processed

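The authors deposited a matrix of UMI counts per gene and cell and a table that gives each cell's group. Cell Ranger 3.02, Scanpy 1.4.4 and mm10 are named in the submitters' processing notes. The cells marked as control in the table were taken as the water library. Cells with at least 200 genes were kept, and Scrublet (scanpy 1.11.5) removed 51 DFMO and 97 water doublets, although only 26.7% of simulated DFMO and 35.0% of simulated water doublets lay above its threshold. Leiden clustering (resolution 1.0, 30 components, 2000 variable genes without receptor segments) gave 22 clusters. A class needed 3 markers, each at least 2 times as high as elsewhere, and 1 among the 10 leading genes. This rule was set after the clusters were seen.

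Counts were summed per library and class as CPM with exact Poisson intervals. Ratios had exact conditional binomial intervals and shares exact Clopper-Pearson intervals, all for counting error only. The intervals were checked on simulated Poisson counts only. This is the model the intervals assume, so the check covers neither UMIs that clump in cells nor the spread between mice. Named were all members, the 3 genes most like each (at least 500 UMIs), and up to 2 genes at either end of each list past the fold. Slc7a2 was too sparse to be ranked. One gene that this rule names is not reported here. The members and lists were chosen with earlier results of these data known. Alternatives are in the closing section, with TMM sizes from edgeR. Gene positions came from GENCODE M21. Protein sequences were not used here.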

Additional observations from a re-analysis of the deposited data

Results flagged for a closer look

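Slc7a5 took opposite directions in 2 groups of leukocytes: the log2 ratio of DFMO over water was 0.77 in monocyte and macrophage-like cells (24 UMIs in DFMO and 72 in water) and -2.35 in cluster 13 of the CD8 T cell-like class (3 UMIs in DFMO and 30 in water). The difference between them was not tested. The cluster 13 value turned to 0.51 when cells were thinned to 1000 UMIs, with a UMI in 3 of 117 DFMO cells and 5 of 277 water cells.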

How the results depend on the processing

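No paired analysis was possible because DFMO and water are 1 library each, and for the same reason no replicate could be left out. Of the recomputed member ratios, 660 kept their value within counting error and 89 moved. The settings differed widely. Thinning to 1000 UMIs moved 50 and left 55 within counting error, and equal class weights moved 8 and left 2. No ratio moved with doublets kept or with totals without receptor segments. A further 3 ratios that were past the fold changed sign, all with cells thinned to 1000 UMIs: Slc7a5 in cluster 13 at 0.51, and Slc1a5 at 0.77 and Slc38a1 at -0.054 in cluster 12, with a UMI in 2 to 12 cells of a library. Ratios short of the fold also changed sign, among them Slc7a5 and Slc7a6 in all kept cells with equal class weights, and Slc38a2 and Slc3a2 in Ptprc-low cells without cluster 2. With each cell weighted alike, the median over the members in all kept cells was -0.33 and 6 were past the fold, against 0.05 and 1. The same weighting gave 1 past the fold in CD8 T cell-like and 1 in NK cell-like cells, against 0 in each, and 1 in monocyte and macrophage-like cells, against 2. Thinning gave 4 past the fold in all kept cells, 4 in monocyte and macrophage-like cells, and a median of -0.051 with 1 past the fold in Ptprc-low cells. Equal class weights gave 2 past the fold in all kept cells. For monocyte and macrophage-like cells, resolution 2.0 gave 1, a 2-fold limit gave 1, and a minimum of 100 UMIs gave 0. At least 500 genes per cell gave 1 in regulatory T cell-like cells, against 0. The causes were not tested. Regulatory T cell-like cells gave no value at resolutions 0.5 and 2.0. Over its alternatives, Slc7a2 in monocyte and macrophage-like cells ranged between 0.40 and 1.29, Slc7a5 there between 0.50 and 1.07, and Slc7a1 in cluster 2 between 0.64 and 1.32. The comparisons with at least 50 cells and those without a cluster were added after seeing the data. Members with few UMIs limit what the DFMO macrophages and water B cells can show.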
